A study of Rattus norvegicus with 4 samples.

Results

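Dmrta1 encodes a DM-domain transcription factor and was the 1 gene examined here, of 14217 genes that the array annotation names with a single symbol. It was taken as every probe set annotated to the symbol Dmrta1, which gave 1 probe set. The gene had been picked because its values differ between wild-type and Pax6 mutant tissue, so that difference is described below and not tested. The series holds 4 one-colour Affymetrix rat arrays of dissected telencephalon, the front part of the embryonic forebrain, at E11.5 (the day counted from the vaginal plug). There were 2 arrays of wild-type rats and 2 arrays of Pax6 mutant rats (rSey2/rSey2), all on a Sprague-Dawley background. The design text names 13 telencephalons per experiment, so an array stands for pooled embryos and single embryos cannot be told apart. In the sample titles the replicates are labelled as biological, but no litter or separate extraction is named for them. The p-values therefore set the difference between genotypes only against the spread of these arrays within a genotype. Whether part of that spread is technical cannot be told from the labels. The mutation is carried in every cell of the embryo, and in pooled tissue fewer cells of a type and less RNA per cell cannot be told apart.

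DM-domain proteins share the zinc-binding DNA-recognition module of doublesex and MAB-3, the sex-determination factors of fly and worm. In the vertebrate forebrain a few of them, Dmrta1, Dmrta2 and Dmrt3, are made by progenitors of the dorsal telencephalon, the part that becomes the cerebral cortex. Pax6 is a paired-box transcription factor of the same progenitors. A published study of this tissue placed Dmrta1 downstream of Pax6 and upstream of the proneural gene Neurog2. These arrays may have led to that study, so the Dmrta1 values are not independent support for it.

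The RefSeq table of build GRCr8 places Dmrta1 on chromosome 5. The 250 bases before its annotated start, chr5:109531454-109531703 on the plus strand, are shown because the study asks how Pax6 bears on the expression of this gene. Capitals mark the only E-box (CANNTG, bound by bHLH factors such as the proneural proteins) and the only GC box (GGGCGG), which share 1 base.

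Dmrta1: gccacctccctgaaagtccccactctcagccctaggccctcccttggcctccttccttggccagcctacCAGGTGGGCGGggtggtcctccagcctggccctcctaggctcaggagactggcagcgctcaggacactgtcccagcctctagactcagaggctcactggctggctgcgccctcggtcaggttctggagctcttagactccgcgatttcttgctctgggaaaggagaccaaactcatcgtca

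Both strands were searched for each motif. An E-box was found in 65.5% of 33469 promoter windows of this length and a GC box in 30.5%, so neither match sets this window apart. The core of the Pax6 paired-domain site (TTCACGC, in 1.1% of windows) and the paired-type homeodomain palindrome (TAAT and ATTA with 3 bases between, in 0.4%) were not found, and the homeodomain core TAAT, present in 57% of windows, was not found either. This says only that those letters are not in these 250 bases. The window was 62.8% G and C, against a median of 51.2% over all windows.

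Dmrta1 had GCRMA values (log2 scale) of 8.61 and 8.80 in the wild-type arrays and of 5.17 and 6.29 in the Pax6 mutant arrays. Both wild-type values lay above both mutant values, with a distance of 2.32 between the lower wild-type and the higher mutant array. The group means were 8.70 ± 0.13 (SD, n = 2) and 5.73 ± 0.80 (SD, n = 2). The difference was -2.97 (SE 0.45), which on the linear scale corresponds to a 7.85-fold lower level, or 12.7% of the wild-type level. The Dmrta1 signal was thus much lower in the mutant, yet the mutant arrays stood 1.95 and 3.08 above the dim level of 3.21. They also stood above the lowest value of the table, 2.07. The dim level, under which probe sets were left out, is the 40th percentile of probe-set means and not a detection limit. Whether transcript remained in the mutant was not tested.

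**Figure D1:**
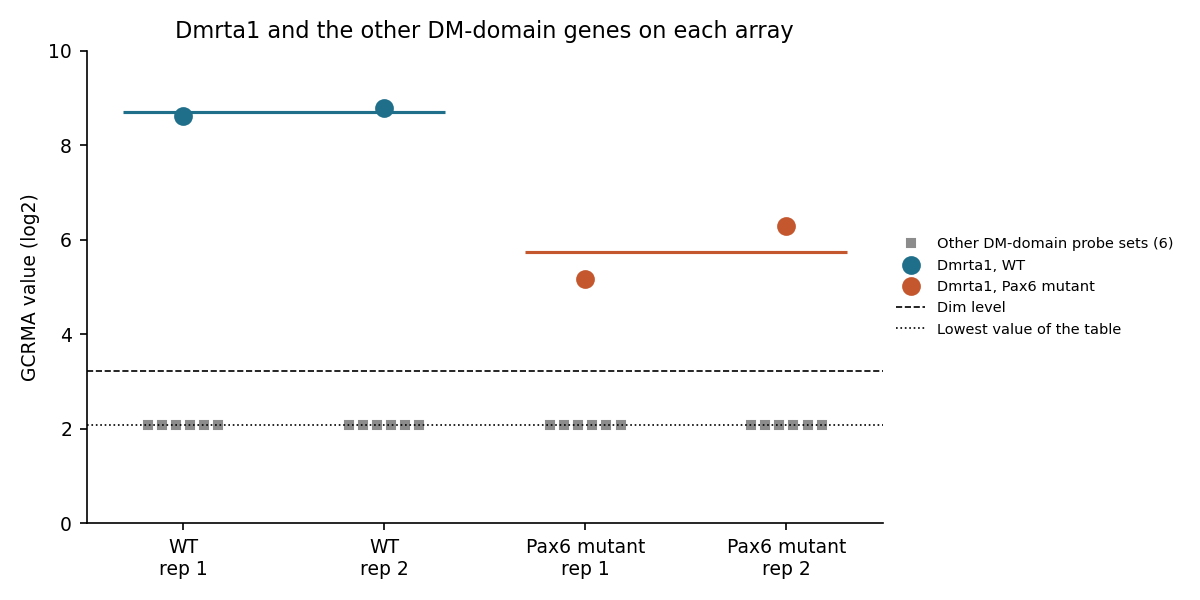
GCRMA values (log2) of Dmrta1 (circles; horizontal lines are group means) and of the 6 other DM-domain probe sets (grey squares) on each of the 4 arrays. Dmrta1 lies between 8.61 and 8.80 in wild type and between 5.17 and 6.29 in the mutant, while the other probe sets lie on the lowest value of the table on every array, or within 0.01 of it.

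The size of the decrease differed between the mutant arrays. Mutant replicate 1 was 10.9-fold and 12.4-fold below the wild-type arrays, and mutant replicate 2 was 4.99-fold and 5.66-fold below them. The gap between the mutant arrays was 1.13 on the log2 scale, against 0.18 between the wild-type arrays. Over all tested probe sets the median gap was 0.20 between the mutant and 0.16 between the wild-type arrays. A wider gap than that of Dmrta1 was found between the mutant arrays for 1.57% of tested probe sets and between the wild-type arrays for 44.8%. Among the 2252 probe sets whose mean over the 4 arrays was within 0.5 of that of Dmrta1, 1.69% had a wider gap between the mutant arrays. Dmrta1 was therefore measured about as closely as other probe sets in wild type and with a wide spread in the mutant. Without mutant replicate 1 the difference was -2.41 and without mutant replicate 2 it was -3.54.

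**Figure D2:**
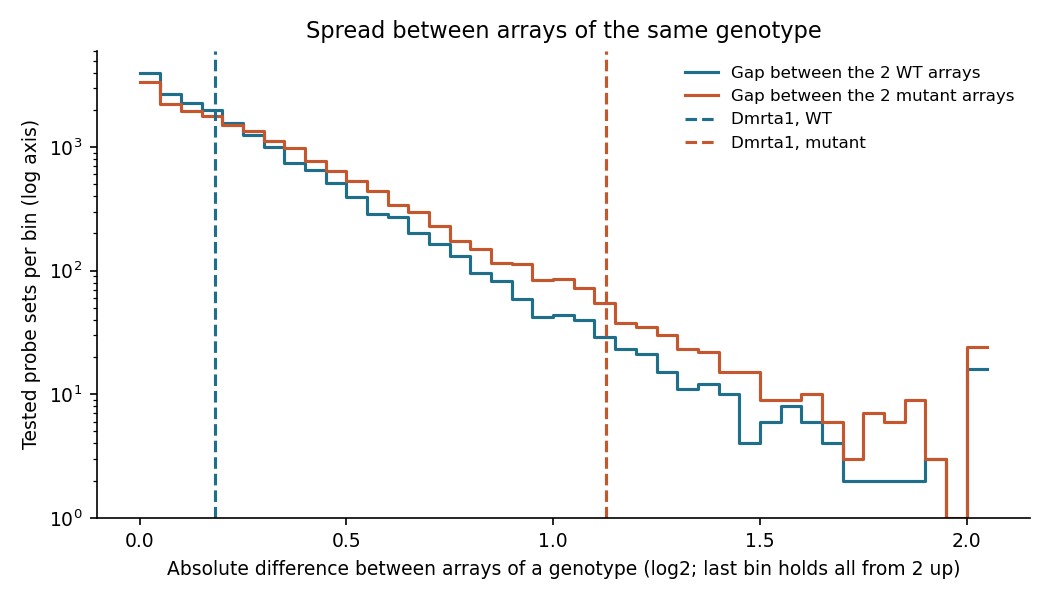
Number of tested probe sets (log axis) by the absolute difference between the 2 arrays of a genotype (log2, bins of 0.05, with all values from 2 upward in the last bin). Dashed lines mark Dmrta1, whose gap is 0.18 between the wild-type arrays, inside the bulk of probe sets, and 1.13 between the mutant arrays, in the tail.

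Across the whole table, limma called 0 of 18625 tested probe sets at a Benjamini-Hochberg adjusted p under 0.05 (0% of those tested), and 680 had an unadjusted p under 0.05. With so few arrays the size and the separation of the groups describe the data more fully than the calls. When each mutant array was set against each wild-type array, 29 probe sets were lower by 1 log2 unit or more every time (0.156% of probe sets tested), Dmrta1 among them. Since the gene was chosen on this contrast, nothing is read from that. By signed difference Dmrta1 stood at rank 4 of 9840 tested genes, each taken at its brightest probe set. Above it in size were the radial glial lipid carrier Fabp7 (-7.26), Prr15 (-4.60) and Map7, a microtubule-associated protein (-3.47). Just after it came Sytl2, a Rab27 effector of secretory vesicles (-2.48), and the Wnt ligand Wnt7a (-2.35). Prr15, Sytl2 and Wnt7a had mutant means under the dim level, where differences are less well measured, and with a pseudocount of 16 Prr15 differed by -2.63 and Sytl2 by -1.33. Other probe sets of Map7 gave -2.78 and -0.23, and another of Wnt7a gave -0.54, so single-probe-set values such as that of Dmrta1 have no check within the array. With the same pseudocount Dmrta1 differed by -2.63 and stood at rank 2. That rank was nearly tied with Prr15 (-2.6283 for Dmrta1 against -2.6277), and Map7 was at -2.52.

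Transcription factors were taken by symbol from 11 families, a list that is not complete. It covered 839 genes with a probe set, of which 591 were tested. Dmrta1 had the lowest difference of these 591 genes and was alone below -2. The next was Zhx2, a zinc-finger and homeobox repressor, which was at 7.16 and 7.07 in wild type and 6.03 and 5.93 in the mutant. Its difference of -1.13 (SE 0.09; limma adjusted p = 0.967) left a distance of 1.84 to Dmrta1. Zhx2 and Dmrta1 were the 2 transcription factors with a decrease of at least 1 in all 4 pairings, which 0.156% of all tested probe sets had. Zhx2 met that limit narrowly, with 1.04 between its lower wild-type and its higher mutant array, and differed by -0.97 with the pseudocount. Rarb, a retinoic acid receptor that is itself induced by retinoic acid, was at 8.52 and 8.02 in wild type and 6.95 and 7.33 in the mutant (-1.13, SE 0.26). Foxa2, a forkhead factor of the ventral midline, differed by -1.10 (SE 0.56), and by -0.44 without WT replicate 2. Sim2, a bHLH-PAS factor, differed by -0.86 (SE 0.22), or -0.56 with the pseudocount. Each of these groups was separated, and none passed in limma (adjusted p = 1 for Rarb, Foxa2 and Sim2).

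On the other side, the 3 highest differences among transcription factors were smaller in size than that of Dmrta1. Npas3, a bHLH-PAS factor of neural tissue, was at 3.80 and 3.66 in wild type and 4.76 and 4.94 in the mutant (1.12, SE 0.11; limma adjusted p = 0.967). Bcl11a, a zinc-finger factor of developing cortical neurons, differed by 0.85 (SE 0.23) and the CREB-family factor Creb5 by 0.81 (SE 0.11), neither past the threshold (limma adjusted p = 1). All 3 kept their sign under the alternatives run, and Npas3 differed by 0.62 with the pseudocount.

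The transcription factors as a whole were balanced: 274 were lower and 311 higher, with a median difference of 0.01 and with 90% of them between the 5th percentile at -0.33 and the 95th at 0.46. The groups did not overlap for 73 of 591 factors on the lower side (12.4%) and 83 on the higher side (14%). Over all tested genes the same shares were 12.1% lower and 12.2% higher. An unadjusted p under 0.05 was found for 18 lower factors, a count that includes Dmrta1, and 21 higher ones, that is 3.05% and 3.55%, against 1.81% lower and 1.78% higher of all tested genes. At an adjusted p under 0.05 limma called 0. The rank of Dmrta1 as the lowest of the factors held in each of the 4 array pairs.

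**Figure D3:**
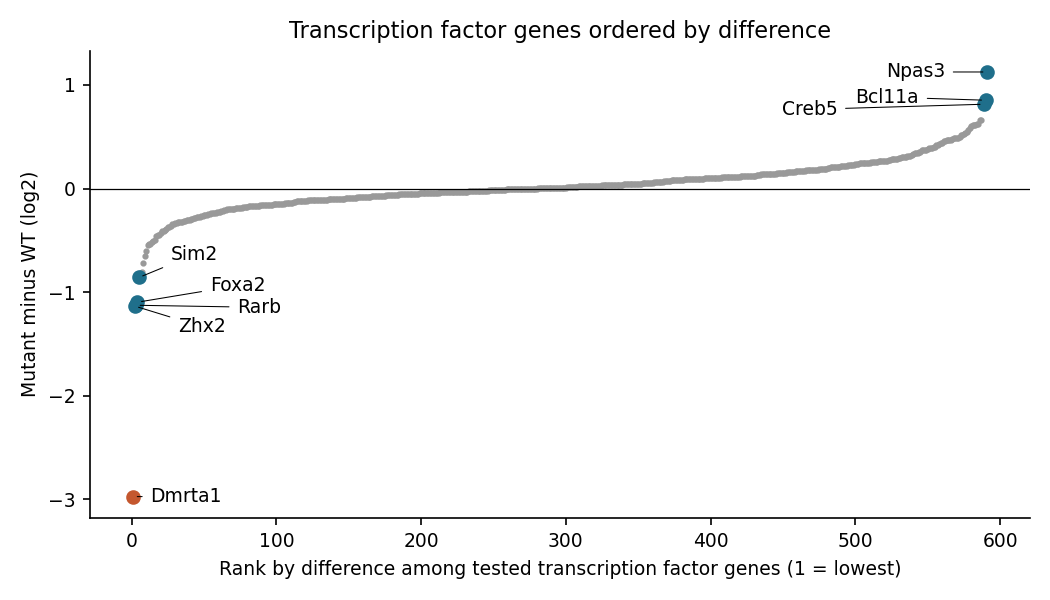
Mutant minus wild type (log2, difference of group means) for the 591 tested transcription factor genes, ordered from lowest to highest. Dmrta1 lies at -2.97, apart from Zhx2, Rarb and Foxa2, which lie between -1.13 and -1.10, while Npas3 on the other end lies at 1.12.

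Other DM-domain genes gave no measurable signal in either genotype. The family was taken by symbol, as genes whose symbol starts with Dmrt, and whether each product holds a DM domain was not checked. The annotation named 5 such genes, and the 4 besides Dmrta1 were covered by 6 probe sets. The 4 were Dmrt1, the male gonad factor, Dmrt2, a somite factor with 2 probe sets, and the X-linked Dmrtc1a (2 probe sets) and Dmrtc1c1. Of these, 5 probe sets were at the lowest value of the table, 2.07, on all 4 arrays. The second Dmrtc1a probe set reached 2.08 in mutant replicate 2. No difference can be measured at that value, so these data show neither a change nor its absence for these genes. Dmrta2 and Dmrt3, the family members that share the dorsal telencephalon with Dmrta1, had no probe set with a single symbol and were not analysed here. The values therefore say nothing on whether another dorsal DM-domain gene moved with Dmrta1 or against it.

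Genes with a like profile over the 4 arrays were sought by the distance between profiles, each centred on its own mean. The 8 nearest were Ralyl, Map7, Calb1, Rcsd1, Sapcd1, Wnt7a, Fez1 and Emilin2, at distances from 1.04 to 1.65 on the log2 scale. All 8 were lower in both mutant arrays, which the search itself selects. Calb1, the calcium buffer calbindin, was at 7.61 and 7.54 in wild type and 5.41 and 6.05 in the mutant. Like Dmrta1 it was lower in mutant replicate 1 than in mutant replicate 2, and its Pearson r with Dmrta1 was 0.997 over the 4 arrays. Rcsd1, an actin-capping-protein regulator, shared that order (3.25 and 3.84 in the mutant, r = 0.997), as did Ralyl, an RNA-binding protein (2.52 and 2.93, r = 0.988). Both mutant values of Ralyl lie under the dim level of 3.21, so its order there is poorly measured, and with the pseudocount Ralyl differed by -0.97 in place of -2.10 and Rcsd1 by -1.02 in place of -1.79.

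Fez1, which takes part in axon growth, was at 11.16 and 11.14 in wild type and 9.48 and 9.50 in the mutant, so it lacked the wide mutant spread of Dmrta1. Sapcd1 (4.78 and 4.64 in the mutant) and the matrix protein Emilin2 (6.82 and 6.52) ran in the opposite order to Dmrta1 between the mutant arrays. Map7 entered through its second probe set, which was at 2.34 and 2.32 in the mutant, under the dim level, as Wnt7a (2.74 on both mutant arrays) and Ralyl were. By Pearson r alone, which ignores size, 1 of the 8 genes, Calb1, stayed among the nearest 8, and with the pseudocount 5 did. With 4 arrays in 2 groups nearly any gene that separates the genotypes correlates with Dmrta1, and these are descriptions.

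**Figure D4:**
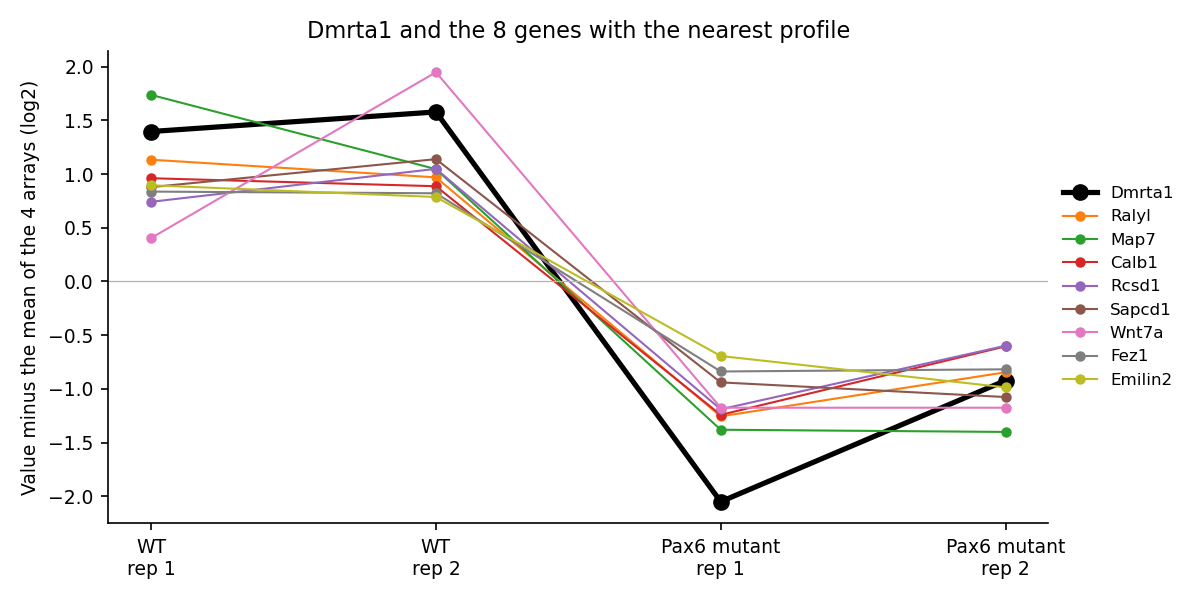
GCRMA values minus each gene's mean over the 4 arrays (log2) for Dmrta1 (thick black) and the 8 genes nearest to it; lines only join the values of a gene. Dmrta1 has the lowest value in mutant replicate 1, at -2.05, and -0.92 in mutant replicate 2, an order that Calb1, Rcsd1 and Ralyl share, the last with both mutant values under the dim level.

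Genes beside Dmrta1 on the chromosome had small differences or no signal. By the gene order of the RefSeq table, the nearest genes with a probe set on one side were the cell-cycle inhibitors Cdkn2b and Cdkn2a, at 2.10 and 2.07 on all 4 arrays and so not measurable, and the methylthioadenosine enzyme Mtap. The 3 probe sets of Mtap differed by 0.03, -0.31 and 0.06. On the other side lay Elavl2, an RNA-binding protein of early neurons, then Caap1 and Plaa. All 3 probe sets of Elavl2 were lower in the mutant without overlap, by -0.42 (SE 0.16; -0.25 without WT replicate 2), -0.19 (SE 0.12) and -0.12 (SE 0.07), and none passed (limma adjusted p = 1). These differences were much smaller than that of Dmrta1, and the table lists 3 protein-coding genes between Dmrta1 and Elavl2. Caap1 differed by -0.007 and Plaa by -0.12 at their brightest probe sets.

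Pax6 itself was at 11.75 and 11.85 in wild type and 11.78 and 11.63 in the mutant, so the Dmrta1 difference stood beside a Pax6 transcript level whose groups overlapped (-0.09, SE 0.10; limma adjusted p = 1). The position of the rSey2 lesion relative to this probe set is not given in the sources used here, and the level does not check the genotype. Of 22 listed dorsal telencephalic transcription factors, 16 had a probe set, 14 were tested and 0 passed in limma. In the mutant 6 of them had lower and 8 had higher means; the median difference was 0.10, or -0.01 with no filter and with the stricter one. Emx2, a homeobox factor of cortical area patterning, was at 10.59 and 10.54 in wild type and 10.50 and 10.45 in the mutant (-0.09, SE 0.07). Lhx2, a LIM-homeobox selector of cortical identity, was at 13.05 and 13.01 against 13.42 and 13.24 (0.30, SE 0.10). The largest differences were those of Bcl11a (0.85, and 0.56 with overlap at its other probe set), Zbtb20, a zinc-finger factor of the hippocampal field (0.49, or 0.14 without mutant replicate 2), Pou3f3, a progenitor POU factor (0.39), and Id4, an inhibitor of bHLH proteins (0.35, or 0.008 without mutant replicate 1). All 4 were higher in the mutant, the opposite side to Dmrta1. Emx1, a cortical homeobox factor, had a mean under the dim level, with 2.77 and 2.14 in wild type and 2.08 in both mutant arrays. Gli3 had no probe set with a single symbol and was not analysed here.

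Proneural genes are the group that Dmrta1 is said to act on, and its best-known member gave no signal. Neurog2, the bHLH factor that drives cortical neurogenesis, was at 2.11 on all 4 arrays, so no difference can be measured. Gsx2, a homeobox factor of the ventral telencephalon, had no probe set with a single symbol and was not analysed here. Neurog1, the close relative of Neurog2, was at 3.52 and 3.72 in wild type and 4.04 and 3.72 in the mutant (0.26, SE 0.16; 0.10 without mutant replicate 1), with touching groups. Of 27 listed proneural genes and targets 21 had a probe set and 13 were tested, of which 3 were lower, 10 higher and 0 past the threshold (median 0.17, or 0.04 with no filter). Rgs16, a regulator of G-protein signalling, was at 7.40 and 7.53 in wild type and 7.94 and 7.96 in the mutant (0.48, SE 0.08). Hes6, which promotes neurogenesis, differed by 0.38 (SE 0.15; 0.24 without mutant replicate 1) and Gadd45g, a neurogenesis-linked stress gene, by 0.37 (SE 0.17; 0.16 without WT replicate 1). Elavl2 was the largest difference on the lower side (-0.42, or -0.25 without WT replicate 2). The 13 tested genes thus held 1 decrease without overlap and 5 such increases, against 12.1% and 12.2% of all tested genes.

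Ventral telencephalic genes were tested in 12 of 25 cases, with 4 lower, 8 higher and 0 past the threshold (median 0.19, or 0.03 without WT replicate 1). Nkx2-1, the homeobox factor of the medial ganglionic eminence, was at 9.70 and 9.80 in wild type and 10.25 and 10.50 in the mutant (0.63, SE 0.12). Dlx1, a homeobox factor of GABAergic progenitors, was at 6.77 and 7.04 against 7.56 and 7.47 (0.61, SE 0.13). Both were higher in each mutant array, without reaching an adjusted p under 0.05 (limma adjusted p = 1). Ebf1, a factor of striatal neurons, differed by 0.66 (SE 0.42), with 0.17 without mutant replicate 2. Olig1, an oligodendrocyte-lineage bHLH factor, differed by -0.32 (SE 0.29), and by 0.02 without WT replicate 2.

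Signals of the cortical hem and dorsal midline come from the tissue beside the dorsal progenitors. Of 32 listed genes 22 had a probe set and 15 were tested, of which 10 were lower, 5 higher and 0 past the threshold in limma (median -0.08, against 0 over all tested genes). The groups did not overlap for 6 lower and 2 higher genes of these 15, where 12.1% and 12.2% of all tested genes did so. Msx2, a homeobox gene induced by BMP, was at 5.39 and 5.35 in wild type and 4.57 and 4.56 in the mutant (-0.81, SE 0.07, or -0.53 under the pseudocount; limma adjusted p = 0.967). Rspo3, a secreted Wnt agonist, was at 4.59 and 4.52 against 3.99 and 3.88 (-0.62, SE 0.08), with -0.34 under the pseudocount and -1.11 at its other probe set. Axin2, a Wnt feedback gene, was at 8.81 and 8.75 against 7.78 and 8.35 (-0.71, SE 0.24), with -0.43 without mutant replicate 1. Like Dmrta1, Axin2 was lower in mutant replicate 1 than in mutant replicate 2. Wnt7a was at 4.32 and 5.87 against 2.74 on both mutant arrays (-2.35, SE 0.61), with -1.19 under the pseudocount. The ligands Wnt8b (-0.01, SE 0.15) and Bmp7 (-0.05, SE 0.31) had overlapping groups.

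Among genes named in the literature as depending on Pax6, 20 of 29 were tested, with 11 lower and 9 higher and a median of -0.03. This list holds Dmrta1 and may hold other genes first picked on such samples, so it gives no independent evidence of a direction. With Dmrta1 in size stood Fabp7, at 11.83 and 12.15 in wild type and 4.89 and 4.56 in the mutant (-7.26, SE 0.19; limma adjusted p = 0.196). Dkk3, a secreted Dickkopf-family protein, was at 7.36 and 7.35 against 5.91 and 5.68 (-1.56, SE 0.11; limma adjusted p = 0.967). Unlike Dmrta1, both were lower in mutant replicate 2 than in mutant replicate 1. Fgf19, an FGF ligand, was higher in the mutant mean by 1.01 (SE 0.73), but by 0.09 without WT replicate 1, with overlapping groups. Of the list 0 genes passed in limma, and the median was -0.03, or -0.10 without WT replicate 1 and -0.08 without mutant replicate 1, against 0 over all tested genes.

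The tissue matched its label as far as the array could show. All 6 telencephalon markers with a probe set, Lhx2, Emx2, Six3, Otx2, Sox2 and Sox1, were tested, and the lowest of their values was 5.07. The 7 markers of midbrain, hindbrain and spinal cord with a probe set (among them En2, Gbx2, Pax2 and 3 Hoxb genes) were all dim. Markers of other tissues were present and some differed between the genotypes, but in each of their lists 0 passed in limma. Of the olfactory placode and surface ectoderm markers 6 of 8 were tested, 4 lower and 2 higher (median -0.45). Their mean value was 6.58 and 6.40 in wild type and 6.04 and 6.31 in the mutant arrays. The order between the mutant arrays was that of Dmrta1. It is not particular to these markers, since the mean over all tested genes shared it (8.78 and 8.85 in the mutant arrays). Epcam, an epithelial adhesion protein, was at 6.57 and 5.90 against 5.48 and 5.16 (-0.92, SE 0.30; -0.58 without WT replicate 1). The keratin Krt18 was at 7.60 and 7.42 against 6.76 and 6.81 (-0.73, SE 0.10), while the cadherin Cdh1 differed by 0.59 (SE 0.14). The part of surface tissue in the Dmrta1 value was not tested.

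Erythroid markers were higher in 6 of 7 cases (median 0.22), with a mean of 8.73 and 8.96 in wild type and 9.21 and 9.29 in the mutant arrays. Endothelial markers were higher in 7 of 7 (median 0.25), with a mean of 7.26 and 7.43 against 7.48 and 7.74. The smallest endothelial difference, that of Tek, was 0.004. Over all tested genes 4888 of 9840 were higher. Groups lay apart on the higher side for 5 of the 7 erythroid and 3 of the 7 endothelial markers, against 12.2% of all tested genes. Alas2, the haem synthesis enzyme of red cells, differed by 0.67 (SE 0.12), and Plvap, a protein of endothelial fenestrae, by 0.65 (SE 0.18). Head mesenchyme markers were lower in 3 and higher in 3 of 6 (median -0.06; mean 8.64 and 8.54 against 8.50 and 8.71). Of the eye markers Rax, the eye-field homeobox factor, differed by 0.57 (SE 0.21; 0.31 without WT replicate 1), Mitf, the pigment-cell factor, by -0.30 (SE 0.21; -0.05 without WT replicate 1), and Tyr, the pigment enzyme, was at 2.07 on all 4 arrays. All these shifts were smaller on the log2 scale than the Dmrta1 difference, and their part in it was not tested.

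**Figure D5:**
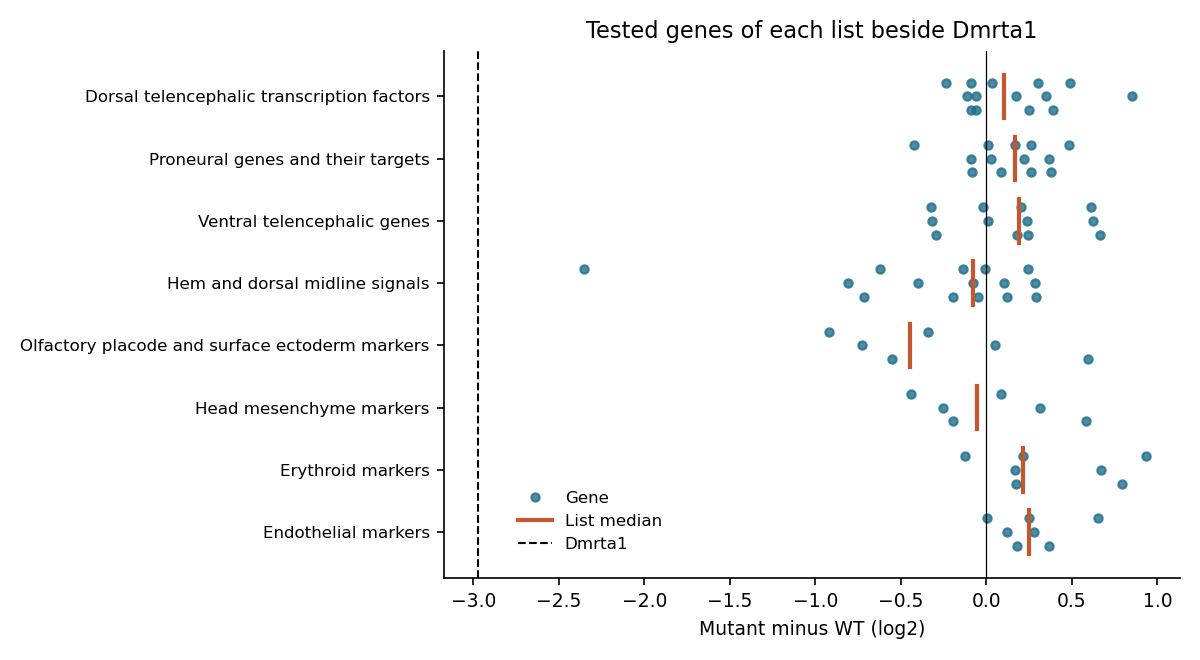
Mutant minus wild type (log2) for each tested gene of 8 lists (points) with the list median (bar) and Dmrta1 (dashed line at -2.97). Dorsal, proneural, ventral, erythroid and endothelial medians lie between 0.10 and 0.25, the hem and mesenchyme medians at -0.08 and -0.06 and that of placode and surface ectoderm at -0.45, and Wnt7a of the hem list, at -2.35, is nearest to Dmrta1.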

How the data were processed

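The authors made the log2 values with GCRMA, as the submitters' processing notes name it without a version; that the scale is log2 was inferred here from their range, 2.07 to 16.13, in the deposited table. Of 31099 probe sets 57 controls were left out. The platform annotation gave 1 symbol to 20826, and 20758 of these matched RefSeq (GRCr8) by Entrez identifier. Probe sets with a mean under the 40th percentile were left out as dim (12417), and 18625 were tested with limma 3.58.1 (R 4.3.3; genotype as the single term, lmFit, eBayes, Benjamini-Hochberg over all of them, threshold 0.05). The procedure was run on simulated data with the same spread for every probe set. The spread of the real probe sets is uneven, so that run does not show how well it calls here. Differences are mutant minus wild type. An exact permutation test of 2 against 2 arrays cannot reach 0.05 and was not run. Arrays give no read depth, and their number limits the precision. Genes named were Dmrta1, the DM-domain genes, up to 4 largest differences per list with 10 preset genes, the 5 lowest and 3 highest transcription factors, the 8 nearest profiles and 3 neighbours a side; Wnt8b, Bmp7 and marker genes were named after their values were seen. The members and lists were chosen with earlier results of these data known. Alternatives were the filter, scaling, a pseudocount, left-out arrays and a replicate block.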

Additional observations from a re-analysis of the deposited data

How the results depend on the processing

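The Dmrta1 difference kept its sign under every alternative run, from -2.99 after quantile normalization to -2.63 with the pseudocount of 16, and from -3.54 to -2.41 with 1 array left out. Dmrta1 was the lowest transcription factor in all of them. The count of probe sets called by limma was 0, but 1 with the stricter filter (Fabp7) and 2 after quantile normalization or median centring (Fabp7 and Prr15). Of the 8 nearest genes, 1 was shared when Pearson r replaced the distance and 5 with the pseudocount. The dorsal list's median of 0.10 was -0.014 with no filter and with the stricter one, and from 0.059 to 0.15 with 1 array left out; the proneural median was 0.04 with no filter. With 1 array left out the ventral median ran from 0.027 to 0.25 and the hem median from -0.20 to -0.035, and that of the Pax6-dependent list reached -0.10; the lone array was assumed to vary like the other genotype. With the replicate number as a block limma called 0, with 1194 probe sets at an unadjusted p under 0.05 against 680 without it, and the Dmrta1 difference was -2.97, as without it. The 2 numbers do not pair the samples by any label, and replicate 1 minus replicate 2 correlated at 0.43 between genotypes over probe sets. Each mutant array correlated more with the wild-type array of its number (Pearson r 0.9931 and 0.9932) than with the other mutant array (0.9894). The wild-type arrays correlated at 0.9923 with each other. The part of this grouping by number in the gap between the mutant arrays was not tested. Values near the lowest of the table (the other DM-domain genes, Neurog2) carry no difference.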
